A study of Mus musculus with 6 samples.

Results

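The *Wt1* locus was examined for FOXC2 binding in sorted podocytes, after adriamycin (ADR) injury and after PBS. Its members were the FOXC2 peaks, in both pooled ChIP-seq peak lists, that had any part within 50 kb of the start of *Wt1* or inside its gene body. *Wt1* (ENSMUSG00000016458.14 in GENCODE M21) lies on the plus strand of chromosome 2 of GRCm38, at 105126529 to 105173616, and is 47088 bp long. The window of 105076529 to 105176529 covers the whole gene, so the distance alone set the members. It held 21 of the 81142 peaks of the series, of which 11 were among the 40067 peaks of the ADR list and 10 among the 41075 peaks of the PBS list. The gene body held 6 peaks of each list.

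The ADR group was adult mT/mG reporter mice injected with ADR at 18 mg/kg on days 0 and 7, with podocytes sorted by FACS on day 9, and the PBS group was mice of the same genotype injected with PBS instead. All mice carried the membrane Tomato and membrane GFP (mT/mG) reporter and a Cre transgene with a podocyte promoter, so that podocytes turn green and can be collected. Each condition had 3 samples, and the authors pooled them into 1 peak list, so the values below carry no replicate error, and no comparison between the conditions was tested. Every peak in a list is named for replicate 1 (R1), while the lists are deposited as pooled, so whether the folds rest on all 3 samples could not be checked from the lists. Per the methods, the reads came from chromatin precipitated with an antibody to FOXC2, were aligned to GRCm38 and were called as narrow peaks over control. The depth of the lists is unknown. The lists hold binding and no RNA, so that the identity of the sorted cells was not checked against marker genes. In such bulk samples, binding in more of the cells cannot be told apart from more binding per cell.

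*Wt1* encodes a zinc finger transcription factor that builds the kidney and gonads and stays on in podocytes for life, where it keeps genes of the slit diaphragm and cytoskeleton active. Its mutations cause nephrotic syndromes and Wilms tumor. FOXC2 is a forkhead factor of podocytes that binds sequences near the core TAAACA, and ADR (doxorubicin) is a toxin used in mice to model focal segmental glomerulosclerosis. *Wt1os*, an antisense gene with no coding sequence, starts at 105126510 just upstream of *Wt1* and runs away from it on the minus strand to 105076538, so that the sites upstream of *Wt1* lie within *Wt1os*.

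The 21 peaks merged into 14 sites when peaks that shared at least 1 bp were joined. Of these, 7 sites were called in both lists, 4 in ADR only and 3 in PBS only. The share called in both was 50.0% (95% Wilson interval 26.8% to 73.2%, which covers counting error only). Over the 53255 merged sites of the genome, 50.1% were called in both lists, 24.3% in ADR only and 25.5% in PBS only, so the makeup of the locus lay near the background. Sites are named here by the distance of the summit from the start of *Wt1*, using the ADR summit where there was one.

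Sequence is given for 6 sites, from 100 bp before to 100 bp after the summit, as the plus strand of GRCm38 from the RefSeq assembly. The sites at +10.9 and +34.7 kb are shown because they had the highest fold among the ADR-only and the PBS-only sites of the locus. The other 4 were chosen after their values were seen, for the second highest fold (29.1 kb upstream) or for the motif letters they hold. Capitals mark exact matches, on either strand, to the motifs described further on. The pair of sites upstream of the gene, both in introns of *Wt1os*, read as follows.
Site 36.5 kb upstream, chr2:105089906-105090106: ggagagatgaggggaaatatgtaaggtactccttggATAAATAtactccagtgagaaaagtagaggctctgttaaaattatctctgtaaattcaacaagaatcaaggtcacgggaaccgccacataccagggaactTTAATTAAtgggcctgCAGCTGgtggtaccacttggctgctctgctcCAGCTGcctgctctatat
Site 29.1 kb upstream, chr2:105097375-105097575: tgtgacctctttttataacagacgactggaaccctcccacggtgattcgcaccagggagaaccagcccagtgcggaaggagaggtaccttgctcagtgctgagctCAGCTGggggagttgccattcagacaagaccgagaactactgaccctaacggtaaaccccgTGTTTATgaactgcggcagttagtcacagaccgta
The 4 sites inside *Wt1*, which lie in its introns 1, 3 and 5, read as follows.
Site +4.0 kb, chr2:105130400-105130600: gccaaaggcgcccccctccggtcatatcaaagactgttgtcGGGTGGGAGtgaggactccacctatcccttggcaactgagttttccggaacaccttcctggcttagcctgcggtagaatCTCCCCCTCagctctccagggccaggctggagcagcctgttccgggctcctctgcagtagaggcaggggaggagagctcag
Site +10.9 kb, chr2:105137296-105137496: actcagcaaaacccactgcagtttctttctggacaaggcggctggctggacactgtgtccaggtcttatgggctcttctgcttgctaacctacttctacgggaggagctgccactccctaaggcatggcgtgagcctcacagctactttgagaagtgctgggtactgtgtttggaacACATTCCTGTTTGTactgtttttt
Site +12.6 kb, chr2:105139037-105139237: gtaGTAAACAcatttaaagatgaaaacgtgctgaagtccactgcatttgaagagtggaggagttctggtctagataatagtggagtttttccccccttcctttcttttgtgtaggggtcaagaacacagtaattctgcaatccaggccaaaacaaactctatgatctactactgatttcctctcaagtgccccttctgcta
Site +34.7 kb, chr2:105161127-105161327: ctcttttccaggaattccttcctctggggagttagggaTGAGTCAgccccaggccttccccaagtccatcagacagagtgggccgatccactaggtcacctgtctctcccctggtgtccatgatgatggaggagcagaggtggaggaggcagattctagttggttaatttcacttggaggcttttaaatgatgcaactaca
The window at the start of *Wt1* holds untranslated sequence and is not printed.

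The strongest FOXC2 site of the locus in the ADR list was the promoter. Its ADR peak, at 105126112 to 105126780, was 669 bp wide with the summit at 105126469, 60 bp upstream of the start and in exon 1 of *Wt1os*. Its PBS peak, at 105126226 to 105126743, was 518 bp wide with the summit at 105126485, 44 bp upstream. The fold, which is the authors' enrichment over the control of the same list, was 30.1 in ADR and 13.2 in PBS. The ADR value was thus 2.29-fold the PBS value (log2 ratio 1.19), the largest ratio among the 7 sites of the locus called in both lists. It stood at percentile 90.4 of the log2 ratios of the 26703 such sites of the genome. The largest of 7 ratios stands high by that choice alone, so this percentile does not mark the promoter as unusual. The −log10 of the caller's q was 107 in ADR and 50.0 in PBS. By rank within its own list, the promoter peak was at percentile 96.1 of the ADR folds and 83.6 of the PBS folds.

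The promoter peak overlies annotated elements of *Wt1*. RefSeq places a fragment of the *Wt1* promoter at 105126016 to 105126782, and both summits lay in it. It also records 7 footprints (A to G) where WT1 protein protects its own promoter, 5 of them upstream of the start. The ADR peak held all 7 and the PBS peak held 5, with footprint A outside it and G only partly inside. The ADR summit lay in footprint E, at 105126450 to 105126483, and the PBS summit was 2 bp outside it. RefSeq also records sites for Pax8 and Sp1 at 105126211 to 105126230 (D site) and 105126232 to 105126248 (P site). PAX8 is a paired box factor of the early nephron. Both sites lay inside the ADR peak, and the PBS peak held the whole P site but not the whole D site. The enhancer through which NF-kB induces *Wt1*, at 105126544 to 105126773, was wholly inside the ADR peak and not wholly inside the PBS peak. These are differences in the called width of the peaks, which had no replicate.

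**Figure D1:**
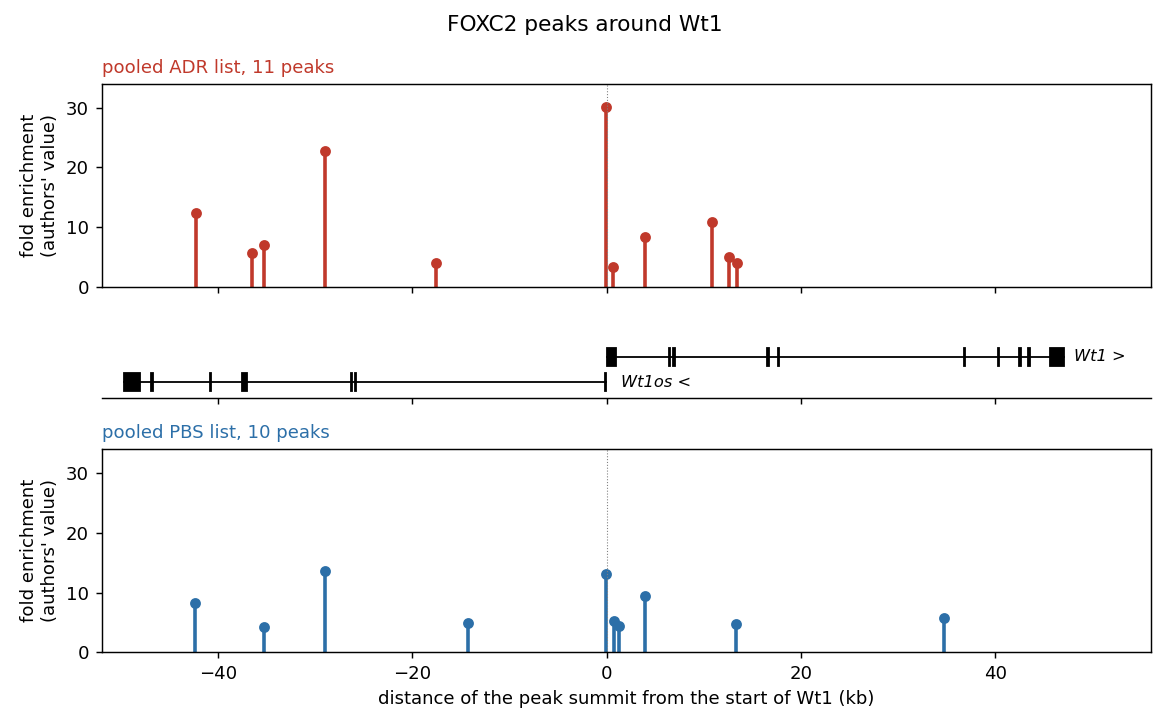
FOXC2 peaks within 50 kb of the start of *Wt1* in the pooled ADR list (upper panel) and the pooled PBS list (lower panel). Each stem is 1 peak, placed by the distance of its summit from the start of *Wt1* in kb, and its height is the authors' fold enrichment. The gene models of *Wt1* and *Wt1os* stand between the panels, with exons as boxes. The promoter peak stands at 30.1 in ADR and 13.2 in PBS, and the ADR list has no peak beyond +13.5 kb.

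Upstream of the start, the next strongest site lay 29.1 kb away in intron 3 of *Wt1os* (transcript Wt1os-203). Its peaks, at 105097025 to 105097808 in ADR and 105097022 to 105097849 in PBS, had summits 2 bp apart. Its fold was 22.6 in ADR and 13.7 in PBS (log2 ratio 0.73), and the PBS value was the highest of the locus in that list. The −log10 q was 82.9 in ADR and 53.6 in PBS. This site and the promoter were the only ones of the locus with a fold above 13 in either list.

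The remaining upstream sites were weaker. At 42.3 kb upstream, in intron 5 of Wt1os-203, the fold was 12.3 in ADR and 8.33 in PBS (log2 ratio 0.57). The ADR peak covered 105083979 to 105084373 and the PBS peak 105084025 to 105084347. At 35.2 kb upstream, in intron 3 of Wt1os-203, the fold was 6.92 in ADR and 4.27 in PBS (log2 ratio 0.70). This site showed the largest gain in rank of the locus, at percentile 45.2 of the ADR folds and 13.6 of the PBS folds. The site 36.5 kb upstream, at 105089896 to 105090157, was called in ADR only with a fold of 5.55, and that at 17.6 kb, at 105108886 to 105109077, in ADR only with a fold of 3.94. The site 14.3 kb upstream, at 105112097 to 105112605 in intron 1 of *Wt1os*, was called in PBS only with a fold of 4.98. *Gm11060*, a small gene model annotated as coding inside the span of *Wt1os* at 105092018 to 105093760, overlapped none of these sites.

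Inside the gene, the fold of each site called in both lists was lower in ADR. At +0.7 kb, in exon 1 of *Wt1*, the fold was 3.25 in ADR and 5.23 in PBS (log2 ratio −0.69), which was percentile 1.33 of the ADR folds and 31.9 of the PBS folds. At +4.0 kb, in intron 1 of the long transcript and just upstream of the start of a shorter one, the fold was 8.23 in ADR and 9.36 in PBS (log2 ratio −0.19). At +13.5 kb, in intron 3, the fold was 3.91 in ADR and 4.72 in PBS (log2 ratio −0.27), with summits 113 bp apart. The exon 1 site was thus near the lower end of all ADR folds, and its −log10 q was 1.90 in ADR and 5.76 in PBS.

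The remaining 4 sites inside the gene were called in 1 list. The site at +10.9 kb, at 105137247 to 105137567 in intron 3, was called in ADR only with a fold of 10.8 and a −log10 q of 22.4. It was the only site of the locus called in a single list with a fold of at least 10. In the same intron, the site at +12.6 kb, at 105139043 to 105139262, was called in ADR only with a fold of 4.99. The PBS-only sites were those at +1.3 kb, at 105127663 to 105128004 in intron 1, with a fold of 4.46, and at +34.7 kb, at 105161058 to 105161327 in intron 5, with a fold of 5.75. A site called in 1 list can carry signal below the threshold in the other, which the lists do not show. The ADR-only folds of the locus spanned 3.94 to 10.8, beside a median of 5.96 over all ADR-only sites, and the PBS-only folds 4.46 to 5.75, beside a median of 4.98 over all PBS-only sites.

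**Figure D2:**
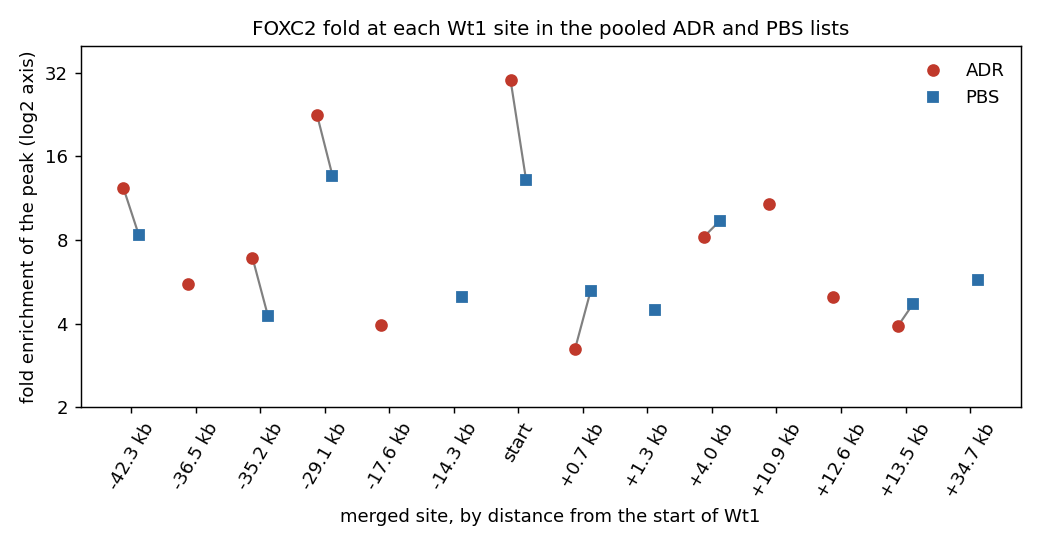
Fold enrichment of FOXC2 at the 14 merged sites of the *Wt1* locus in the pooled lists, ADR as circles and PBS as squares, on a log2 axis. Sites run by distance from the start of *Wt1*, and lines join the values of sites called in both lists. The lines slope down toward PBS at the start and the 3 shared sites upstream of it, and up toward PBS at the 3 shared sites inside the gene.

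Over the 7 sites called in both lists, the log2 ratio of ADR over PBS fold had a median of 0.57 and was above 0 at 4 sites (57.1%). Over all 26703 sites called in both lists it had a median of 0.05 with quartiles of −0.40 and 0.55, and the ADR fold was higher at 52.6%. The count at *Wt1* lay near that background. The signs were split by position, since the 4 sites at or upstream of the start were higher in ADR (median 0.71) and the 3 sites inside the gene lower in ADR (median −0.27). This split was chosen after the values were seen and rests on 7 sites with no replicate. Inside the gene, the ADR peaks at +0.7 and +13.5 kb were weak (folds 3.25 and 3.91, −log10 q 1.90 and 3.11). With a −log10 q of at least 5 in both lists, the 4 sites at or upstream of the start stay. Inside the gene, only that at +4.0 kb (log2 ratio −0.19) then stays. Over sites up to 50 kb upstream of the nearest coding start, the ADR fold was higher at 49.3% of 8605, and over those up to 50 kb downstream at 51.8% of 11790. For the shared sites 42.3, 35.2 and 29.1 kb upstream of *Wt1*, the nearest coding start is that of *Gm11060*. The site 29.1 kb upstream of *Wt1* lies downstream of that start, so this background does not sort sites as the split at *Wt1* does. The signs at the 7 sites were the same by rank within each list. Centering on the genome median moves each ratio by only 0.05. The ratio nearest 0 was −0.19 (+4.0 kb), so centering could change no sign.

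**Figure D3:**
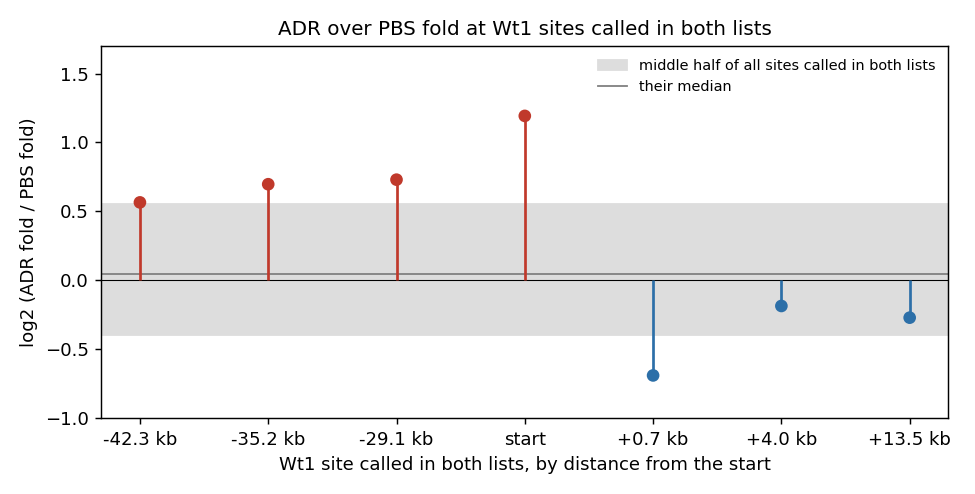
Log2 ratio of ADR over PBS fold at the 7 *Wt1* sites called in both lists, by distance from the start. The grey band spans the quartiles of all 26703 sites called in both lists (−0.40 to 0.55) and the line in it is their median (0.05). The 4 sites at or upstream of the start lie above the band and, inside the gene, the site at +0.7 kb lies below it while those at +4.0 and +13.5 kb lie in it.

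As a group, the ADR peaks of the locus had folds of 3.25 to 30.1 with a median of 6.92, and the PBS peaks 4.27 to 13.7 with a median of 5.49. The median of all peaks was 7.42 in ADR and 6.53 in PBS. The peaks of the locus covered 4159 bp in ADR and 4251 bp in PBS. The lists thus marked nearly the same length of DNA around *Wt1*, and the highest fold was 30.1 in ADR (promoter) and 13.7 in PBS (29.1 kb upstream).

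Among 21938 coding genes, *Wt1* was rich in FOXC2 peaks in both lists. Counting *Wt1* itself, 1142 genes (5.21%) had at least its 11 ADR peaks within 50 kb of the start and 1989 genes (9.07%) at least its 10 PBS peaks, where the median gene had 2 in each list. A highest fold of at least 30.1 within 50 kb was found at 9.54% of genes in ADR, and one of at least 13.7 at 34.7% in PBS. By peaks within 10 kb, *Wt1* had 3 in ADR, a number reached by 11.6% of genes, and 4 in PBS, reached by 6.46%. Within 100 kb, its 22 ADR peaks were reached by 2.76% of genes and its 17 PBS peaks by 9.63%. The order of the lists by rank was therefore the same within 50 and 100 kb and turned within 10 kb. Of the 16880 coding genes with a peak within 50 kb, 27.2% had more ADR peaks than PBS peaks, as *Wt1* did by 1 peak, and 44.1% had fewer.

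The motifs of FOXC2 and of factors that share podocyte enhancers were looked up within 100 bp of each summit on both strands. The forkhead letters were ATAAATA or ATAAACA, then ACAAATA or ACAAACA, then GTAAATA or GTAAACA, and GCAAATA or GCAAACA. A match was found at 5 of the 14 sites, of which 3 were ADR only, 1 was PBS only and 1 was called in both. They were ATAAATA at 36.5 kb upstream, ATAAACA at 29.1 kb upstream, ACAAATA at 14.3 kb upstream, ACAAACA at +10.9 kb and GTAAACA at +12.6 kb. All 5 lay more than 50 bp from the summit. The match at +12.6 kb, at 105139040 to 105139046, crosses the edge of its peak, which starts at 105139043. By list, 4 of 11 ADR peaks and 2 of 10 PBS peaks of the locus had a match, beside 25.1% of all ADR peaks and 19.5% of all PBS peaks. A match is a description of letters, and neither it nor its lack shows how FOXC2 is held at a site.

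The promoter, where the ADR fold was highest, had no forkhead match in its window. It held GGGTGTGG, 1 of the KLF letters (GGGCGGGG, GGGCGTGG, GGGTGGGG and GGGTGTGG), on the minus strand at 105126466 to 105126473, which takes in the ADR summit. It also held the E-box CAGCTG, a sequence bound by helix-loop-helix factors such as TCF21, at 105126399 to 105126404. A KLF match was found at 3 of the 14 sites. By list, 2 of 11 ADR peaks and 3 of 10 PBS peaks of the locus had it, beside 18.6% and 19.3% of all peaks. The E-box was found at 4 sites, and at 29.1 kb upstream it stood 7 bp from the ADR summit. In the locus 4 of 11 ADR peaks and 3 of 10 PBS peaks held it, and over the genome 18.2% of ADR peaks and 16.2% of PBS peaks.

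The WT1 letters (GNGGGGGAG, GNGGGGGCG, GNGTGGGAG and GNGTGGGCG, which can overlap those of KLF) were matched at 2 sites, both inside the gene. At +4.0 kb, where GGGTGGGAG and GAGGGGGAG were found, both peaks held them. At +0.7 kb GCGGGGGAG was within reach of the PBS summit alone. By list, 1 of 11 ADR peaks and 2 of 10 PBS peaks of the locus had such a match. It was found in 29.0% of all ADR peaks and 28.6% of all PBS peaks. The windows around the promoter summits held no exact match to these letters. That of the ADR summit, 105126369 to 105126569, wholly covers only D and E of the WT1 footprints in RefSeq. Footprints A, B and G lie outside it and C and F only partly inside, so these were not wholly searched.

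The letters of LMX1B, a homeodomain factor required in podocytes, were TTAATTA and TAATTAA, and they were found at 1 site, the ADR-only site 36.5 kb upstream, where they overlap as TTAATTAA. Of all peaks, 3.52% in ADR and 1.52% in PBS held them. The TEAD letters (ACATTCCA, ACATTCCT, GCATTCCA and GCATTCCT) were found at 42.3 kb upstream and at +10.9 kb, where ACATTCCT shares 1 base with the forkhead match. In the locus, 2 of 11 ADR peaks and 1 of 10 PBS peaks had a TEAD match. Of all peaks, 9.25% in ADR and 7.73% in PBS had one. The AP-1 letters (TGACTCA and TGAGTCA) were found once, as TGAGTCA at the PBS-only site at +34.7 kb, beside 4.02% of all ADR peaks and 9.33% of all PBS peaks. The MAF letters TGCTGAC were at none of the 14 sites, beside 5.00% of all ADR peaks and 4.40% of all PBS peaks. The GC content of these windows had a median of 52.7% in ADR and 52.5% in PBS at the locus, and of 54.2% in ADR and 55.2% in PBS over all peaks.

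Other transcription factor genes of podocytes were set beside *Wt1* by peaks within 50 kb of the start. Of 6 such genes, 3 had more ADR than PBS peaks and 3 had fewer, with a median difference of 1 peak. Of all 16880 genes with a peak, 27.2% had more and 44.1% had fewer, with a median difference of 0. *Tcf21*, which encodes a helix-loop-helix factor, had 8 peaks in ADR and 3 in PBS with a highest fold of 33.9 in ADR and 9.88 in PBS. *Lmx1b* had 15 peaks in ADR and 11 in PBS, and *Foxc2* itself 9 in ADR and 6 in PBS. The 3 genes with fewer ADR peaks were *Foxc1*, with 5 in ADR and 7 in PBS, *Klf15*, with 4 in ADR and 5 in PBS, and *Tead1*, with 11 in ADR and 12 in PBS. The highest fold was higher in ADR at 5 of the 6 genes, the exception being *Foxc2* at 26.6 in ADR and 30.3 in PBS. It was higher in ADR at 7404 of the 16880 genes, but a gene with a peak in only 1 list could not count as higher. The share among genes with peaks in both lists is therefore larger than these counts give.

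**Figure D4:**
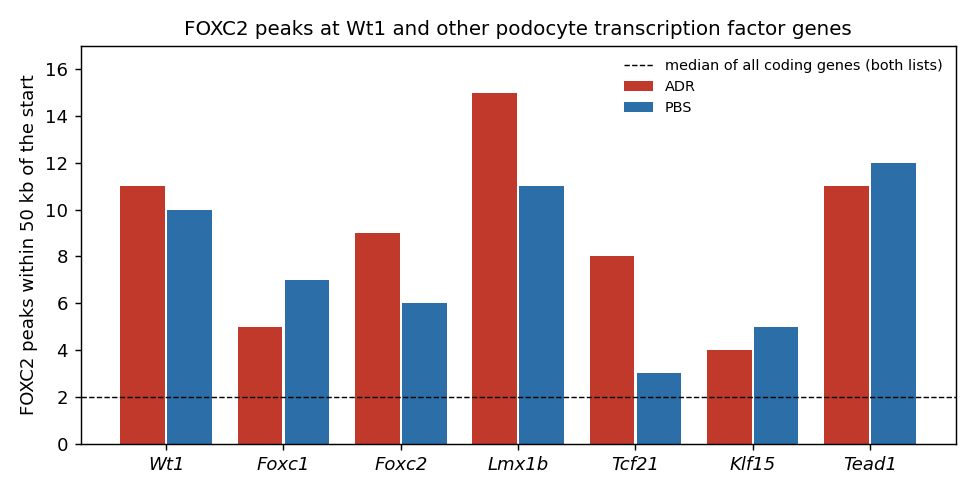
FOXC2 peaks counted up to 50 kb from the start of *Wt1* and of 6 other podocyte transcription factor genes, ADR bars left of PBS bars. The dashed line is the median of all coding genes, 2 in each list. *Wt1* had 11 in ADR and 10 in PBS, and *Lmx1b* had the most ADR peaks of the 7 genes, with 15 in ADR and 11 in PBS.

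Among 9 genes grouped here as WT1 partners and cofactors, a grouping that was not tested, 3 had more ADR than PBS peaks and 6 had fewer. Their median difference was −1, beside the 27.2% with more and 44.1% with fewer of all genes. *Cited2*, a coactivator gene, had 7 peaks in ADR and 4 in PBS, and *Pax2*, a paired box gene of the developing kidney, had 5 in ADR and 11 in PBS. Among 10 known targets of WT1 in podocytes, 5 had more ADR peaks, 4 had fewer and 1 had the same number, with a median difference of 0.5, beside the same 27.2% and 44.1%. *Podxl*, which encodes the surface sialoprotein podocalyxin, had 18 peaks in ADR and 16 in PBS, with a highest fold of 21.8 in ADR and 14.7 in PBS. *Nes*, which encodes the intermediate filament nestin, had 9 in ADR and 18 in PBS. *Col4a3* and *Col4a4* start side by side and share the same peaks. The peaks of these 10 genes summed to 98 in ADR and 107 in PBS, counting peaks shared by neighbors more than once. Counted likewise over all 16880 genes, they summed to 71839 in ADR and 78918 in PBS.

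The genes with a binding pattern most like that of *Wt1* were found by a Euclidean distance over 4 values, the number of peaks and their mean log2 fold in each list, among 15545 coding genes with peaks in both. *Wt1* had a mean log2 fold of 2.98 in ADR and 2.75 in PBS. The nearest were *Ctsa* and *Neurl2*, with 11 peaks in ADR and 10 in PBS (distance 0.134), *Tmem88b* with the same numbers (0.216), and *Gm42742* and *Mvp* with 11 in each (0.254). *Ctsa* and *Neurl2* share their peaks, as do *Gm42742* and *Mvp*, so these 5 genes stand for 3 loci.

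The edges of the window fell between sites. The outermost site inside was that at 42.3 kb upstream, and the first outside was an ADR-only peak with its near edge 50597 bp from the start, at 105075694 to 105075932, with a fold of 5.28. Downstream, the outermost site inside was that at +34.7 kb, and the next was at +97.9 kb, called in both lists with a fold of 13.4 in ADR and 19.2 in PBS, over the start of the next coding gene, *Them7*. No other coding gene than *Gm11060* lay in the window, and the nearest upstream of it, *Ccdc73*, ends 108625 bp from the start of *Wt1*.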

How the data were processed

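Podocytes of ADR and PBS mice were collected by FACS and FOXC2 binding was read out by ChIP-seq in 3 samples per condition. Per the methods, the authors aligned trimmed reads to GRCm38, ran nf-core/chipseq for narrow peaks and pooled the samples of a condition. Which caller version and cutoff were used is not given in the sources used here. Each deposited list holds, per peak, a score (a whole number), the fold enrichment over the control (a ratio), and the −log10 p-value and −log10 q-value. The score and the −log10 p were not used. The depth is not in the lists, so differences in depth or pooling could move both calls and folds.

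Peaks were assigned to *Wt1* and to 21938 coding genes by distance to the start of the gene record, with genes from GENCODE M21 and RefSeq elements and sequence of GRCm38. Peaks sharing at least 1 bp were merged into sites, and a site's fold in a list is that of its strongest peak. Motifs were exact matches within 100 bp of the summit. Python 3.11.15, NumPy 2.4.6, pandas 2.3.3, SciPy 1.17.1 and matplotlib 3.10.9 were used, and the steps were tested on simulated data. Intervals are 95% Wilson intervals.

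Named were *Wt1*, the genes overlapping its window, the 5 genes most like it, and examples from 3 lists (podocyte transcription factors, WT1 partners, WT1 targets) by largest difference in number of peaks, with *Foxc1*, *Foxc2*, *Lmx1b*, *Klf15*, *Tead1*, *Col4a3* and *Col4a4* added after their values were seen. Results at some genes of these lists are not reported here. The locus, the lists and the motifs were chosen with earlier results of these data known. Alternatives were windows of 10, 25 and 100 kb, the gene body, stricter peaks, stricter overlap, other scalings of the fold, merged sites in the ranking and motifs within 50 bp.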

Additional observations from a re-analysis of the deposited data

How the results depend on the processing

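Every value at *Wt1* rests on 1 pooled list per condition, at unknown depth. No paired analysis was possible because the samples were pooled into 1 list per condition, in which the numbered samples cannot be separated, and for the same reason no sample could be left out. The alternatives left 25 values within their margin and moved 28. The order of the lists was not stable. ADR had 1 peak more than PBS within 50 kb, 1 fewer within 10 kb and the same number in the gene body. The share of genes with at least as many peaks was 5.21% in ADR and 9.07% in PBS within 50 kb. It was 2.76% in ADR and 9.63% in PBS within 100 kb, but 11.6% in ADR and 6.46% in PBS within 10 kb. The median log2 ratio stayed above 0. The cause was not tested beyond what each alternative removes or adds by construction. The peaks numbered 11 in ADR and 10 in PBS. They numbered 3 in ADR and 4 in PBS within 10 kb, 7 in ADR and 6 in PBS within 25 kb, 22 in ADR and 17 in PBS within 100 kb, and 6 in each in the gene body. They numbered 7 in ADR and 6 in PBS with a fold of at least 5, and 6 in ADR and 4 in PBS among the 20000 peaks of smallest q. The sites called in both (7) numbered 4 with a fold of at least 5, 4 among the 20000, 3 within 10 kb and 11 within 100 kb. The ADR-only sites (4) numbered 2 among the 20000, 0 within 10 kb and 11 within 100 kb, and the PBS-only sites (3) numbered 0, 1 and 6 under these settings. Within 50 bp of the summit, the sites with a match numbered 0 for forkhead (5 within 100 bp), 1 for TEAD (2), 0 for AP-1 (1), 1 for WT1 (2) and 2 for the E-box (4). The median log2 ratio of ADR over PBS fold at sites called in both was 0.57 and stood between 0.52 after centering and 0.63 with overlap of at least 50% of both peaks.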

Other observations

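Beyond the window, the stretch 50 to 100 kb upstream of *Wt1* held 10 ADR peaks and 5 PBS peaks, in 12 sites of which 3 were called in both lists, 7 in ADR only and 2 in PBS only. Over all merged sites, 50.1% were called in both lists, 24.3% in ADR only and 25.5% in PBS only. This stretch was looked at after the values within 50 kb were seen. Among its ADR-only sites, 3 had a fold of at least 10, with 18.8 at 62.9 kb, 14.3 at 57.1 kb and 16.4 at 55.8 kb upstream, and none of its PBS-only sites did. The 3 sites lie within 7118 bp. Over the genome, 2314 of 12955 ADR-only sites and 621 of 13597 PBS-only sites had a fold of at least 10. Of the 2314, 65 lay in 21 runs of 3 or more such sites within 10 kb. The 3 sites here made up 1 of these runs. Close to it, the site 67.6 kb upstream was strong in both lists, with a fold of 31.2 in ADR and 32.5 in PBS.

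Farther upstream, the site at 99.0 kb had a fold of 19.9 in ADR and 6.20 in PBS. The site at 122.7 kb, which lies inside the coding genes *Eif3m* and *Ccdc73*, had a fold of 32.5 in ADR and 7.68 in PBS. Downstream of *Wt1*, the stretch 50 to 100 kb from the start held 1 ADR peak and 2 PBS peaks. Which gene any of these sites acts on is not known from the lists.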
